A study of Mus musculus with 12 samples.

Results

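The ABC drug and lipid efflux transporters are 10 genes taken by symbol from the 57010 genes counted in mouse preosteoclasts: Abcg2, Abcg3, Abcb1a, Abcb1b, Abca3, Abcc1, Abcc2, Abcc3, Abcc4 and Abcc5. All 10 were found and all 10 were among the 15425 genes kept for testing. RNA came from bone marrow cells of female LSD1WT and LSD1cKO mice, grown for 2 days in M-CSF and RANKL so that they start to become osteoclasts. LSD1cKO mice carry a floxed LSD1 gene (Kdm1a) that is removed by Cre under LysM, the Lyz2 promoter, which is active in myeloid cells, and the study calls the control genotype Lsd1LysM-WT. The 6 conditions are mandible marrow of mice with a ligature for 7 days, femur marrow of ligated mice and femur marrow of mice with no ligature, in each genotype, with 2 libraries each. The labels name 9 mice aged 2 months, although the study's sequencing methods state a different age, and 3 ligated mice (1 LSD1WT and 2 LSD1cKO) gave libraries of both sites. Mandible LSD1WT replicate 3 was placed by its title, while its library name says femur. Several of these transporters were chosen by the study from these or related samples for a heat map and for qRT-PCR, so their directions here are not independent evidence.

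ABC transporters are membrane proteins that use ATP to move substrates across a lipid bilayer, and most of those in mammals export. ABCG2 exports porphyrins, urate and many drugs, and the ABCB1 proteins (P-glycoprotein, encoded in the mouse by Abcb1a and Abcb1b) export hydrophobic drugs and lipids. The ABCC or multidrug resistance proteins carry organic anions, among them glutathione conjugates, the leukotriene LTC4 and cyclic nucleotides, while ABCA3 moves phospholipids into lamellar bodies of lung cells. ABCG2 and ABCB1 are known in bone marrow for the efflux of dyes that marks primitive blood-forming cells.

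Total counts per library ran from 21375805 to 32526751 (median 26364586), and a count of 0 allows up to 3 counts, which is 0.0927 to 0.154 CPM (read counts scaled to the library size after TMM). These limits cover counting error only. Kdm1a was lower in every LSD1cKO library (15.6 to 24.3 CPM) than in every LSD1WT library (61.2 to 71.3 CPM). Osteoclast transcripts were present in the LSD1cKO libraries, where 20 osteoclast genes summed to 14708 to 33707 CPM, against 30432 to 46094 CPM in 4 LSD1WT libraries. In LSD1WT, both femur replicate 2 libraries stood apart, with sums of 1189 CPM (ligated) and 1168 CPM (unligated), which are 2.58% and 2.76% of the sums in their replicate 1 partners. In the same 2 libraries Ctsk, the collagen-degrading protease of osteoclasts, was at 5.90 and 17.1 CPM against 2197 to 7875 CPM elsewhere. The low level did not hold for each gene of the sum. Ostm1 was at 124 and 119 CPM there, against 111 to 206 CPM elsewhere. Traf6 was at 68.4 and 66.8 CPM, against 54.9 to 126 CPM elsewhere. The platelet factor Pf4 was at 883 and 433 CPM in these 2 libraries, against 8.69 to 54.3 CPM elsewhere. The mandible LSD1WT libraries differed by 1.25 times the counting noise (median over genes), against 2.52 to 12.4 times in the other pairs, so their spread need not hold the spread between mice. Results are therefore given with all 12 libraries and without both femur LSD1WT replicate 2 libraries. In bulk RNA, fewer cells of a type and less RNA per cell cannot be told apart.

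Transcript level per length differed widely between the transporters. Length was taken as all annotated exons of a gene together, so the order below depends on the annotation. For Abcb1b it was 7990 bases, against 4306 in the longest coding transcript, and for Abcb1a 5480 against 4997. On a scale of CPM per kb of exon, medians over the 12 libraries were 19.4 for Abcc1, 12.6 for Abcc5, 6.55 for Abcb1b, 5.75 for Abcc4, 5.13 for Abca3, 4.79 for Abcg3, 4.13 for Abcc3, 1.96 for Abcg2, 0.199 for Abcb1a and 0.168 for Abcc2. Abcc1 and Abcc5 led in the LSD1cKO libraries and in 4 of the LSD1WT libraries. The ranges of neighbours in this order overlapped across libraries, from Abcc1 (13.2 to 25.9) and Abcc5 (10.2 to 19.996) to Abcb1a (0.0074 to 0.759) and Abcc2 (0.018 to 0.418). The summed level of the 10 genes was 47.9 to 56.4 CPM per kb in 4 LSD1WT libraries, 59.2 to 81.5 in the LSD1cKO libraries, and 114 in each of the femur LSD1WT replicate 2 libraries. In those 2 libraries Abcc3 had the highest level of the 10, with up to 38.6 CPM per kb, which was up to 33.7% of the sum.

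**Figure D1:**
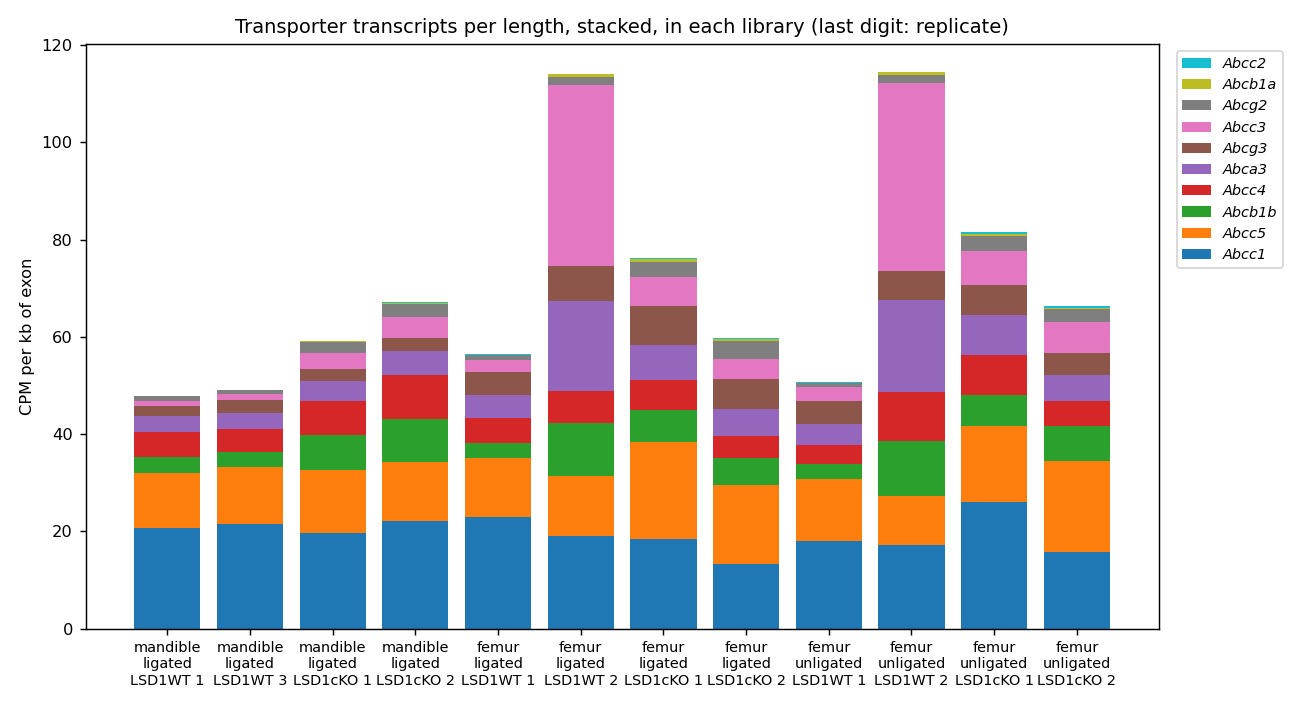
Stacked bars give the CPM per kb of exon of the 10 transporters (vertical axis, linear from 0) in each of the 12 libraries (horizontal axis). The 2 femur LSD1WT replicate 2 bars reach 114 CPM per kb, the LSD1cKO bars 59.2 to 81.5 and the other LSD1WT bars 47.9 to 56.4.

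Over the 3 cultures, LSD1cKO preosteoclasts had more Abcg2 and Abcc2 transcript than LSD1WT, and 8 of the 10 transporters did not pass the test. The genotype was tested with the culture as a term (edgeR's quasi-likelihood test, Benjamini-Hochberg adjusted over 15425 genes), with 6 libraries per genotype. In this comparison 2 of the 10 were called higher and 0 lower, beside 3% of all tested genes called higher and 0.532% called lower. The median log2 fold change of the 10 was 0.25, beside -0.06 over all genes. Libraries from different mice and paired sites of the same mouse were treated alike here, so p-values measure the spread between libraries.

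Abcg2 (ENSMUSG00000029802), the porphyrin, urate and drug exporter, had the smallest p of the 10, at rank 99 of 15425. Mandible libraries held 7.59 and 6.24 CPM (LSD1WT) and 18.7 and 21.2 CPM (LSD1cKO). Ligated femur libraries held 7.57 and 13.2 CPM (LSD1WT) and 26.5 and 30.9 CPM (LSD1cKO). Unligated femur libraries held 5.92 and 13.3 CPM (LSD1WT) and 23.8 and 22.1 CPM (LSD1cKO). Every LSD1cKO library was above every LSD1WT library, as were 1.98% of all tested genes, and the 2 highest LSD1WT values belonged to the femur replicate 2 libraries. The LSD1WT mean was 8.97 ± 3.39 CPM (SD, n = 6) and the LSD1cKO mean 23.9 ± 4.32 CPM (SD, n = 6). The log2 fold change was 1.42 (standard error 0.21, 95% interval 0.95 to 1.88, adjusted p 0.00594), which is 2.67-fold. Without both femur LSD1WT replicate 2 libraries it was 1.79 (adjusted p 1.63e-05), where 14.7% of all genes were called higher.

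The size of the Abcg2 difference was similar by value in the separate cultures. Its log2 fold change was 1.53 (standard error 0.40) in mandible, 1.47 (0.40) in ligated femur and 1.25 (0.40) for unligated femur. None of these passed adjustment over all genes in the edgeR fit of the 6 conditions (adjusted p 0.530, 0.434 and 0.716), in which 0%, 0.00648% (1 gene) and 0% of all genes passed, and the unadjusted p values were 0.00479, 0.00583 and 0.0129. DESeq2 called Abcg2 in the mandible (adjusted p 0.0494) and in the ligated femur (adjusted p 0.0375), beside 0.914% and 1.24% of all genes called higher, and not in the unligated femur (adjusted p 0.206). Between mandible and ligated femur the genotype effect differed by 0.06, with a 95% interval from -1.21 to 1.33, and between ligated and unligated femur by 0.21, with an interval from -1.06 to 1.49. Both intervals hold effects of more than 1 on the log2 scale in either direction, so equal effects were not shown.

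The summed level of 14 stem and progenitor cell markers was higher in LSD1cKO, as Abcg2 was, but this rested on few of them. It was 24.5 to 49.3 CPM in LSD1WT and 181 to 348 CPM in LSD1cKO, without overlap. Most of it in LSD1cKO was Ly6a, which encodes the surface antigen Sca-1 (1.75 to 12.9 CPM in LSD1WT and 58.7 to 277 CPM in LSD1cKO), and Gfi1b, a repressor that recruits LSD1 (0.0828 to 4.07 CPM and 38.4 to 57.6 CPM). Cd34 was at 58.2 and 70.6 CPM in mandible LSD1cKO against 7.59 and 8.62 CPM in mandible LSD1WT, and over the femur libraries it overlapped between the genotypes (6.11 to 33.2 CPM in LSD1WT and 7.58 to 16.4 CPM in LSD1cKO). Gata2 was at 5.87 and 6.68 CPM in mandible LSD1cKO against 2.49 and 2.83 CPM in mandible LSD1WT. In femur it overlapped (0.0828 to 1.94 CPM in LSD1WT and 1.75 to 2.53 CPM in LSD1cKO). Procr, at a low level, did not overlap (0.857 to 2.69 CPM in LSD1WT and 2.99 to 5.02 CPM in LSD1cKO). Kit (0.456 to 2.60 CPM in LSD1WT and 2.06 to 4.45 CPM in LSD1cKO) and Meis1 (3.51 to 5.08 CPM and 2.02 to 4.39 CPM) overlapped. Of the list, 7 genes averaged at least 1 CPM, and the stem cell genes Hlf, Mecom, Hoxa9, Myct1 and Slamf1 stayed between 0 and 1.06 CPM in the 12 libraries. The summed level of 7 endothelial genes overlapped between the genotypes, at 11.8 to 72.9 CPM in LSD1WT and 44.1 to 105 CPM in LSD1cKO. The part of such cells in the Abcg2 difference was not tested.

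The start of Abcg2 is shown because this gene gave the strongest call. RefSeq (GRCm38.p6) lists 3 starts for it, and the counts, which the labels tie to GRCm39, do not tell them apart. Of the 250 bases upstream, 51.2%, 50% and 67.6% were G or C, with 3, 10 and 23 CpG pairs, against a median of 52.4% over 32851 start windows. The third window is printed 5′ to 3′ in the direction of the gene, with capitals for a cAMP response element (TGACGTCA, searched on both strands and chosen after the sequence was seen), which 1.55% of all windows hold.
Abcg2, chr6:58640296-58640545, plus strand: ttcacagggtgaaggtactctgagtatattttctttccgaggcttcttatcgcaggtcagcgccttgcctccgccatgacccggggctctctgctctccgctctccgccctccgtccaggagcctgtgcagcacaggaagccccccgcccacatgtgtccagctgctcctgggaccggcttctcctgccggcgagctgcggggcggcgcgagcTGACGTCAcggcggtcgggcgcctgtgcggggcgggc
None of the 3 windows held the antioxidant response element core (TGACNNNGC), the xenobiotic response element core (GCGTG), the GFI1 core (AATCNNNGC), an AP-1 site (TGANTCA) or a CACGTG E-box on either strand. These letters are a description of the window, and binding was not measured here.

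Abcc2 (ENSMUSG00000025194), which encodes MRP2, the exporter of conjugates into bile, was the other transporter called higher, from a low level. Mandible libraries had 0.816 and 0.514 CPM (LSD1WT) and 1.51 and 1.76 CPM (LSD1cKO). Ligated femur libraries had 1.36 and 0.154 CPM (LSD1WT) and 2.64 and 2.67 CPM (LSD1cKO). Unligated femur libraries had 0.840 and 0.331 CPM (LSD1WT) and 3.56 and 2.79 CPM (LSD1cKO). All LSD1cKO values were above all LSD1WT values, and the 2 lowest were again the femur LSD1WT replicate 2 libraries, of which the ligated one held 3 counts. The log2 fold change over the 3 cultures was 1.83 (standard error 0.44, 95% interval 0.86 to 2.80) with an adjusted p of 0.0495, close to the threshold. Leaving out any 1 library other than the 2 of ligated femur LSD1WT ended the call, with adjusted p from 0.0608 to 0.121. Without both femur LSD1WT replicate 2 libraries the log2 fold change was 1.40 (adjusted p 0.00179). By culture it was 1.297 (mandible), 1.77 (ligated femur) and 2.42 (unligated femur), with unadjusted p of 0.141, 0.0557 and 0.0170.

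The window upstream of Abcc2 is shown beside that of Abcg2, as the second gene called. Of its bases 45.6% were G or C, with 1 CpG pair, and it held 1 match to the antioxidant response element core, printed in capitals, at positions -98 to -90 from the start. This core is present in 10.2% of all windows.
Abcc2, chr19:43782058-43782307, plus strand: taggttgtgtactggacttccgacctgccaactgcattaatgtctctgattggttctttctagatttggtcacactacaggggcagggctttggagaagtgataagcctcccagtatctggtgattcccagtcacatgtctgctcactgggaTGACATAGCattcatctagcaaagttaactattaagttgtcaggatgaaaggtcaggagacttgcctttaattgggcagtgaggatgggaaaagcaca

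Abcc5 (ENSMUSG00000022822), which encodes MRP5, an exporter of cyclic nucleotides and haem, lay higher in LSD1cKO within each culture but did not pass adjustment. Mandible libraries gave 119 and 125 CPM (LSD1WT) and 139 and 129.6 CPM (LSD1cKO). Ligated femur libraries gave 128 and 133 CPM (LSD1WT) and 214 and 174 CPM (LSD1cKO). Unligated femur libraries gave 137 and 109 CPM (LSD1WT) and 167 and 199 CPM (LSD1cKO). Over the 3 cultures the log2 fold change was 0.43 (standard error 0.12) with an adjusted p of 0.0832. By culture it was 0.14 (mandible), 0.57 (ligated femur) and 0.58 (unligated femur). Abcg2 and Abcc5 in ligated femur, and Abcg2, Abcc2 and Abcc5 in unligated femur, had unadjusted p under 0.05, as had 6.88% and 4.95% of all genes. Abcg2, Abcc2 and Abcc5 were the 3 of 10 transporters whose LSD1cKO libraries lay above LSD1WT without overlap within each of the 3 cultures, as did 5.17% of all tested genes. DESeq2 called Abcc5 (adjusted p 0.0098), beside 5.34% of all genes called higher, and so did the fit without both femur LSD1WT replicate 2 libraries (log2 fold change 0.38, adjusted p 0.0351).

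**Figure D2:**
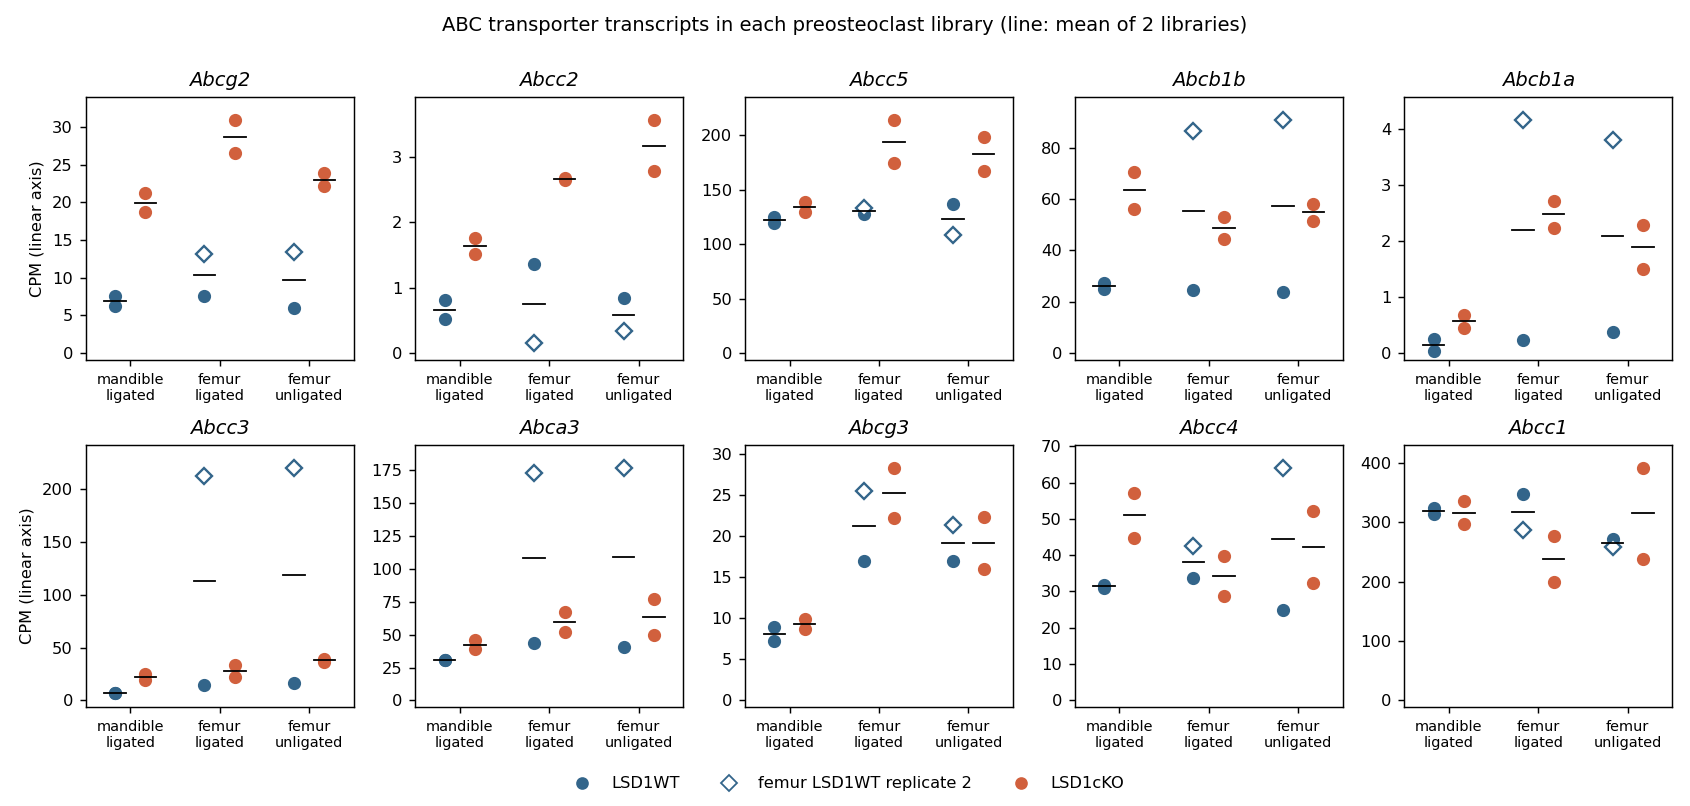
Each panel gives the CPM of 1 transporter (linear vertical axis) in the 12 libraries by culture, with LSD1WT in blue, LSD1cKO in orange, open diamonds for femur LSD1WT replicate 2 and a line at the mean of 2 libraries. For Abcg2, Abcc2 and Abcc5 the orange points lie above the blue ones in every culture, while for Abcb1a, Abcb1b, Abcc3 and Abca3 the diamonds are highest.

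A second pattern was shared by Abcb1b, Abcb1a, Abcc3 and Abca3. Their highest values were in the 2 femur LSD1WT libraries with low osteoclast sums, and LSD1cKO lay between these and the other LSD1WT libraries. The exception was Abca3 in the mandible LSD1cKO replicate 1 library (38.8 CPM), which was below 2 of the other LSD1WT libraries. The femur genotypes overlapped for all 4, and none of the 4 was called with 12 libraries. The summed level of 15 macrophage genes was highest in the same libraries, at 14735 CPM (ligated) and 11925 CPM (unligated), against 1855 to 5090 CPM in LSD1cKO. This did not hold for each gene. Cd68 was at 1102 and 1168 CPM there, against 1359 CPM in ligated femur LSD1WT replicate 1. The part of the cell makeup in the transporter levels was not tested.

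Abcb1b (ENSMUSG00000028970), the more abundant P-glycoprotein gene here, was at 24.4 and 86.6 CPM (LSD1WT) and 53.1 and 44.3 CPM (LSD1cKO) for ligated femur. Unligated femur libraries contained 23.7 and 90.7 CPM (LSD1WT) and 51.6 and 58.1 CPM (LSD1cKO). Mandible libraries contained 27.3 and 25.1 CPM (LSD1WT) and 56.3 and 70.8 CPM (LSD1cKO). The femur LSD1WT replicate 2 value was 3.54 times (ligated) and 3.82 times (unligated) that of replicate 1. For LSD1cKO the log2 fold change over the 3 cultures was 0.33 (standard error 0.40, adjusted p 0.759) with 12 libraries and 1.21 (standard error 0.10, adjusted p 3.17e-05) without those 2.

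Abcb1a (ENSMUSG00000040584), the other P-glycoprotein gene, was scarce. It had 1 and 7 counts in the mandible LSD1WT libraries (0.0408 and 0.257 CPM) and 13 and 22 counts in mandible LSD1cKO (0.447 and 0.680 CPM). Ligated femur libraries held 0.226 and 4.16 CPM (LSD1WT) and 2.72 and 2.24 CPM (LSD1cKO). Unligated femur libraries held 0.382 and 3.81 CPM (LSD1WT) and 2.28 and 1.503 CPM (LSD1cKO). The femur LSD1WT pairs differed by 18.4 times (ligated) and 9.98 times (unligated), the most of the 10 in the ligated femur. Its log2 fold change was 0.50 (adjusted p 0.812) with 12 libraries and 2.54 (adjusted p 0.00196) without the 2 libraries.

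Reads of Abcb1a and Abcb1b can be hard to separate. The longest GENCODE vM21 transcripts of the pair share an identical run of 338 bases, and 10.6% of all 75-base windows of Abcb1a and 12.4% of those of Abcb1b occur in the other gene. How reads that map to both were counted is not stated, so the values of both genes carry this uncertainty in both genotypes. The stretch below, at positions 1691 to 1785 of the Abcb1a transcript and 1658 to 1752 of Abcb1b, lies in that run and is shown because no read inside it can tell the genes apart. Capitals mark the bases that encode the ABC signature motif of the ATP-binding domain.
Abcb1a and Abcb1b: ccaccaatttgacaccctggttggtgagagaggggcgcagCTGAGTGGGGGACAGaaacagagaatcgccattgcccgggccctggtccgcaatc
The 95 bases around the second signature motif differ at 1 base between the pair. Abcg2 and Abcg3 share no 50-base window. Abcb1a, Abcb1b and Abca3 each overlap an exon of a gene on the opposite strand, Gm42686, Gm5106 and D330041H03Rik, and the strand setting of the counting is not stated.

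The starts of the P-glycoprotein genes are shown because the genes lie near each other on chromosome 5 and share coding sequence. The window before Abcb1a was 40.4% G or C with 0 CpG pairs, and that before Abcb1b was 52.8% with 9. Abcb1b had 1 GC box (GGGCGG, in 32.7% of all windows) and 2 CCAAT boxes (CCAAT, in 33.8%), and Abcb1a had neither. Both held the PU.1 core (GAGGAAG, in 10.6%), 2 copies before Abcb1a and 1 before Abcb1b. Neither held any of the elements marked by capitals above. Whether these cells use the listed starts, and the part of these letters in the levels of the genes, was not tested.
Abcb1a, chr5:8566841-8567090, plus strand: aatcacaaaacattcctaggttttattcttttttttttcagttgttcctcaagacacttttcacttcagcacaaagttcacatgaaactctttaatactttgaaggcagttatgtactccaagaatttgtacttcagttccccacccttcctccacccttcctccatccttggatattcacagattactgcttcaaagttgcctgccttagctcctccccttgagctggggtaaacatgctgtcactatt
Abcb1b, chr5:8797897-8798146, plus strand: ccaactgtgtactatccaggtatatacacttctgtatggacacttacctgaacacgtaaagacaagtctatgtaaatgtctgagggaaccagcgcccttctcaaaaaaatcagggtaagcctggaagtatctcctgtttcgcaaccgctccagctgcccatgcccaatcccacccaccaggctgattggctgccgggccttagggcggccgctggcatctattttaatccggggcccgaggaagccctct

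Abcc3 (ENSMUSG00000020865), which encodes MRP3, an exporter of bile acids and glucuronides, differed most between libraries in CPM. Ligated femur libraries showed 14.2 and 212 CPM (LSD1WT) and 33.2 and 22.4 CPM (LSD1cKO). Unligated femur libraries showed 16.7 and 219.7 CPM (LSD1WT) and 39.6 and 36.2 CPM (LSD1cKO). Mandible libraries showed 6.65 and 7.12 CPM (LSD1WT) and 19.1 and 24.7 CPM (LSD1cKO). The femur LSD1WT replicate 2 values were 14.96 and 13.1 times those of replicate 1. Over the 3 cultures its log2 fold change was -0.80 (standard error 0.91, adjusted p 0.742), and it turned to 1.35 (standard error 0.16, adjusted p 0.000222) without those libraries.

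Abca3 (ENSMUSG00000024130), the phospholipid transporter, followed the same order. Ligated femur libraries carried 43.9 and 173 CPM (LSD1WT) and 67.5 and 52.3 CPM (LSD1cKO). Unligated femur libraries carried 40.7 and 177 CPM (LSD1WT) and 76.8 and 50.1 CPM (LSD1cKO). Mandible libraries carried 30.6 and 31.0 CPM (LSD1WT) and 38.8 and 46.0 CPM (LSD1cKO). Its log2 fold change was -0.40 (adjusted p 0.720) with 12 libraries and 0.55 (adjusted p 0.0149) without the 2 libraries.

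**Figure D3:**
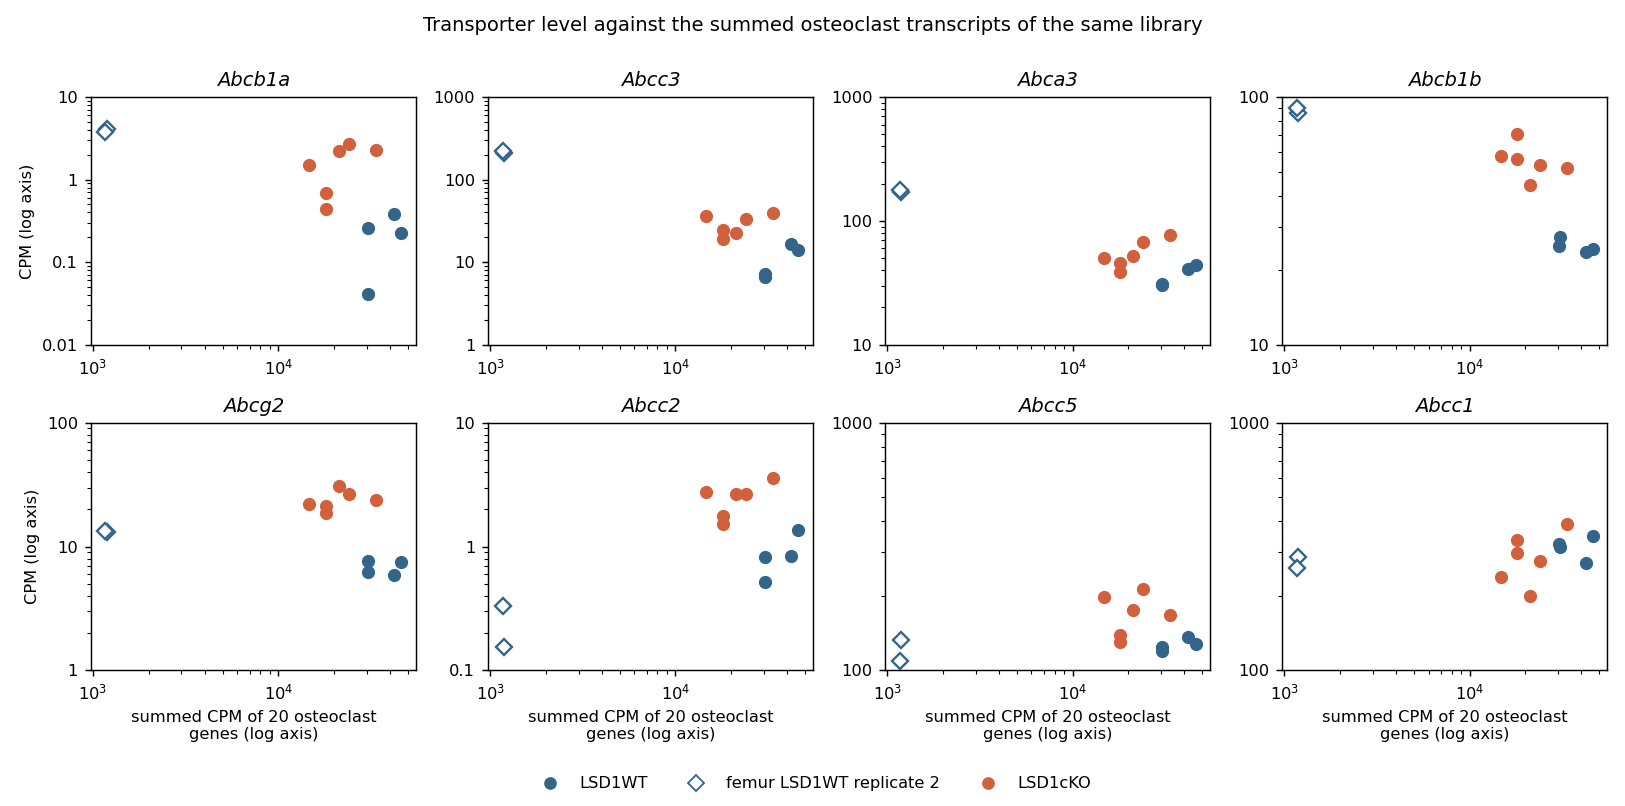
Each point is a library, with the summed CPM of 20 osteoclast genes on the horizontal log axis and the CPM of 1 transporter on the vertical log axis (LSD1WT blue, LSD1cKO orange, open diamonds femur LSD1WT replicate 2). The diamonds, at sums of 1168 and 1189 CPM, are highest for Abcb1a, Abcc3, Abca3 and Abcb1b, lowest for Abcc2, between the genotypes for Abcg2, and within the range of the others or at its lower end for Abcc5 and Abcc1.

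Leaving out both femur LSD1WT replicate 2 libraries changed how many transporters were called over the 3 cultures from 2 to 8 of 10, all higher in LSD1cKO. The share of all genes called higher rose to 14.7%, and of genes called in either direction to 25.1%. The 8 were Abcg2, Abcb1a, Abcb1b, Abca3, Abcc2, Abcc3, Abcc4 and Abcc5, with log2 fold changes from 0.38 to 2.54. Abcg3 (0.33, adjusted p 0.129) and Abcc1 (-0.07, adjusted p 0.794) did not pass. This fit leaves 1 LSD1WT library for each femur culture, which is assumed to vary like the other groups.

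**Figure D4:**
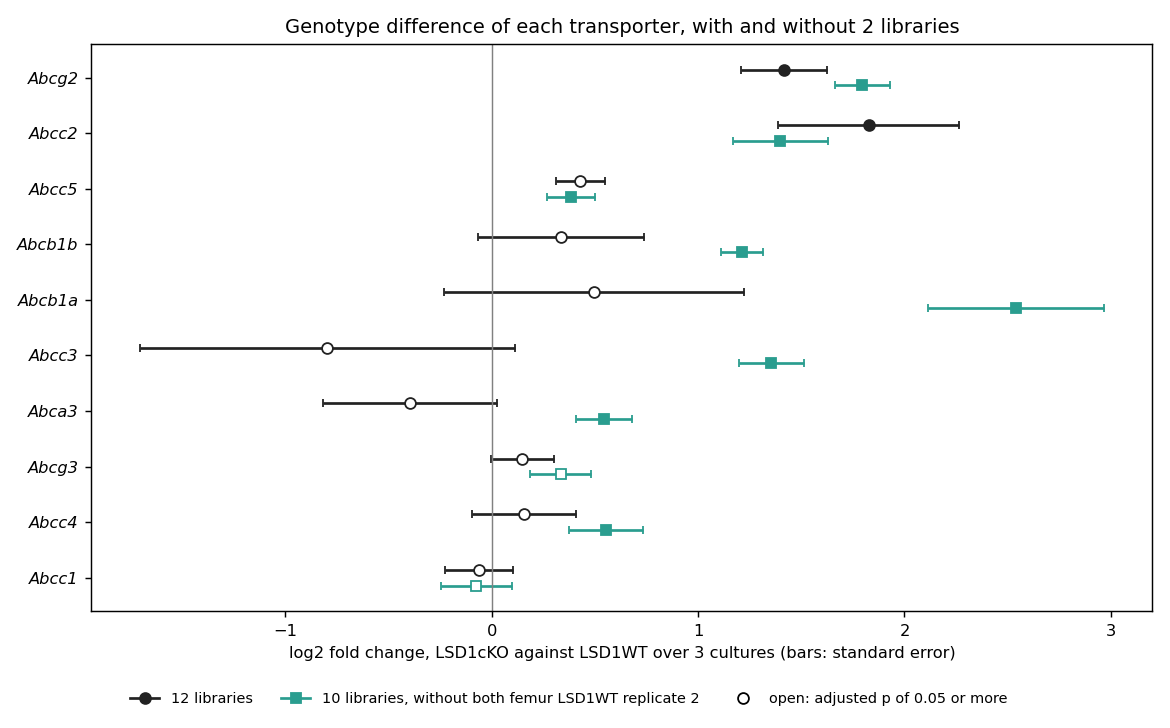
The log2 fold change of each transporter for LSD1cKO against LSD1WT over 3 cultures (horizontal axis) is given with its standard error for all 12 libraries (black circles) and for 10 libraries without both femur LSD1WT replicate 2 (green squares), with filled symbols at an adjusted p under 0.05. Abcc3 moves from -0.80 to 1.35 and Abca3 from -0.40 to 0.55, while Abcg2 moves from 1.42 to 1.79.

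Abcc1, Abcc4 and Abcg3 did not pass the test between the genotypes with 12 libraries. Abcc1 (ENSMUSG00000023088), which encodes MRP1, the exporter of LTC4 and of glutathione conjugates, had medians of 300.5 CPM in LSD1WT (259 to 348) and 287 CPM in LSD1cKO (199 to 392). Its log2 fold change of -0.06 had a 95% interval from -0.42 to 0.30. Abcc4 (ENSMUSG00000032849), which encodes MRP4, an exporter of prostaglandins and cyclic nucleotides, had medians of 32.8 CPM in LSD1WT (24.8 to 64.0) and 42.3 CPM in LSD1cKO (28.7 to 57.2), and its interval ran from -0.40 to 0.72. The highest Abcc4 value was in femur unligated LSD1WT replicate 2, and without the 2 libraries its log2 fold change was 0.55 (adjusted p 0.0448). Abcg3 (ENSMUSG00000029299), a rodent relative of Abcg2, had medians of 16.99 CPM in LSD1WT (7.30 to 25.6) and 19.1 CPM in LSD1cKO (8.66 to 28.3), and its interval ran from -0.19 to 0.48.

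In the mandible of ligated mice, 8 of the 10 transporters lay higher in LSD1cKO than in LSD1WT without overlap of the 2 libraries each, beside 34.1% of all tested genes that did. In the fit of the 6 conditions 0 of 10 and 0 of all genes passed adjustment, and 1 of the 10, Abcg2, had an unadjusted p under 0.05, as had 4.82% of all genes in either direction. The summed level of the 20 osteoclast genes was lower in the same LSD1cKO libraries, at 17982 and 18073 CPM against 30531 and 30432 CPM in LSD1WT, and its part in the transporter levels was not tested. By ratio of means, Abcb1a was 3.78 times, Abcc3 3.18 times, Abcg2 2.88 times, Abcc2 2.46 times, Abcb1b 2.43 times, Abcc4 1.62 times and Abca3 1.38 times the LSD1WT level. The standard errors of their log2 fold changes were large in this fit, from 0.40 for Abcg2 (1.53) to 1.48 for Abcb1a (1.86). The log2 fold changes of Abcc3 (1.67), Abcb1b (1.28), Abcc4 (0.70), Abca3 (0.46), Abcg3 (0.20) and Abcc5 (0.14) had unadjusted p from 0.0868 to 0.536. Fitted on the 4 mandible libraries alone, Abcg2, Abcb1b, Abca3, Abcc2, Abcc3 and Abcc4 were called higher, beside 18% of all genes called higher. That fit takes its spread in LSD1WT from the pair that is close to counting noise. DESeq2 called Abcg2 alone of the 10, and without both femur LSD1WT replicate 2 libraries Abcg2, Abcb1b and Abcc3 were called, beside 5.13% of all genes called higher.

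The site was compared in ligated mice of each genotype, with 5 of the 10 transporters lower in the mandible without overlap in LSD1WT and 6 in LSD1cKO, beside 31.5% and 35% of all genes. Abcg3, Abca3 and Abcc5 were among these in both genotypes. In LSD1cKO, Abcb1b, Abcc1 and Abcc4 lay the other way, higher in the mandible without overlap. Their unadjusted p values (edgeR) were 0.570, 0.183 and 0.216, and the share of all genes that lay higher is not reported here. In LSD1WT, Abcc4 was among the lower ones. Abcg3 had the smallest p of the 10 in each genotype. Among LSD1WT libraries it had 7.30 and 8.92 CPM (mandible) and 16.9 and 25.6 CPM (femur), and among LSD1cKO libraries 8.66 and 9.92 CPM (mandible) and 28.3 and 22.2 CPM (femur). The log2 fold change was -1.39 (standard error 0.30, unadjusted p 0.00136, adjusted p 0.167) in LSD1WT and -1.44 (0.30, 0.00105, 0.118) in LSD1cKO. None of the 10 and none of all genes passed adjustment in either comparison (edgeR), while 19.8% and 15% of all genes had an unadjusted p under 0.05. DESeq2 called Abcg3 in both genotypes (adjusted p 0.00197 and 0.000661) and also Abcc3 in LSD1WT, beside 6.86% and 3.09% of all genes called lower. In LSD1WT, Abcc3 (-4.04), Abcb1a (-3.79) and Abca3 (-1.81) also had unadjusted p under 0.05, and for these the femur mean rests on replicate 2. In LSD1cKO the same genes gave -0.34, -2.13 and -0.50, with unadjusted p of 0.780, 0.144 and 0.507, and Abcc5 gave -0.53 (unadjusted p 0.0282). Abcg2 gave -0.58 in LSD1WT and -0.53 in LSD1cKO, with unadjusted p of 0.179 and 0.217. Without both femur LSD1WT replicate 2 libraries, which are not part of the LSD1cKO comparison but enter its estimate of spread, Abcg2, Abcg3, Abcb1a and Abcc5 were called lower in LSD1cKO mandible, beside 11.8% of all genes. Femur and mandible libraries shared 1 mouse in LSD1WT and 2 mice in LSD1cKO. A limma voom fit with the mouse as a random block called 0 of 10 in both, at an estimated within-mouse correlation of -0.391. A negative correlation widens the error of a comparison within mice, so this fit cannot show that the sites are alike. The share of all genes it called is not reported here.

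The distant effect of the ligature was compared in femur cultures, and 0 of the 10 transporters passed in either genotype, nor did any have an unadjusted p under 0.05, as 0.765% (LSD1WT) and 0.959% (LSD1cKO) of all genes did. In LSD1cKO, the log2 fold change of Abcg2 was 0.32, with a 95% interval from -0.58 to 1.22, and that of Abcc1 was -0.40, from -1.05 to 0.24. The LSD1WT values of replicate 2 with and without ligature were alike by value for Abcb1b (86.6 and 90.7 CPM), Abcc3 (212 and 219.7 CPM) and Abca3 (173 and 177 CPM).

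The genotype effect was not shown to depend on site or ligature for any transporter. None of the 10 had an unadjusted p under 0.05 in either interaction, where 0.966% (site) and 0.344% (ligature) of all genes did. The largest by value was Abcc3, whose genotype effect was 3.69 higher in the mandible than in the ligated femur on the log2 scale (95% interval -0.28 to 7.67, unadjusted p 0.0648), followed among the abundant genes by Abcb1b at 1.47 (-0.64 to 3.58). Over the alternatives, the value ran from 0.63 to 4.54 for Abcc3 and from 0.22 to 2.05 for Abcb1b. For Abcc1 the ligature difference was -0.66 (-1.57 to 0.25).

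Of 43 other ABC genes, 27 were tested, and 1 was called higher and 1 lower over the 3 cultures. Of all tested genes, 3% were called higher and 0.532% lower in this comparison with all libraries. These shares also apply to the lists that follow, and whether any list differed from them was not tested. The median log2 fold change of the 27 was -0.02, beside -0.06 over all genes. Tap1, which brings peptides to MHC class I, was higher (0.74, adjusted p 0.0382), with a median of 141 CPM in LSD1cKO and 72.3 CPM in LSD1WT. Abcb9, a lysosomal peptide transporter, was lower (-0.76, adjusted p 0.0480), at medians of 1.93 and 3.26 CPM. Abca8b gave 0.75 (adjusted p 0.108). Without the 2 femur LSD1WT libraries 9 of the 27 were called higher and 6 lower, beside 14.7% of all genes called higher and 10.3% called lower in that fit, which also holds for the lists that follow.

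Of 20 genes for regulators of these transporters, such as the xenobiotic receptors, 16 were tested and 1 was called higher. It was Ahrr, the repressor of the aryl hydrocarbon receptor (1.26, adjusted p 0.0129), at medians of 33.4 CPM in LSD1WT and 77.4 CPM in LSD1cKO. The nuclear receptor genes Ppard (-0.80, adjusted p 0.114) and Rxra (-1.57, adjusted p 0.196) did not pass. Without the 2 libraries 7 of 16 were called higher and 0 lower, and the values of Ppard and Rxra were -0.32 and -0.19.

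Of 24 genes for glutathione synthesis and conjugation, which provide substrates of the ABCC proteins, 22 were tested and 1 was called higher. Slc7a11, the cystine importer that feeds glutathione synthesis, was higher (1.34, adjusted p 0.0443), at medians of 6.04 CPM in LSD1WT and 14.2 CPM in LSD1cKO. Gclm and Gclc, the subunits of the first enzyme of glutathione synthesis, gave -1.17 (adjusted p 0.168) and -0.68 (adjusted p 0.214). Without the 2 libraries 8 were called higher and 4 lower, and Gclm was among the latter (-0.33, adjusted p 0.028).

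Of 23 genes for eicosanoids and cyclic nucleotides, 22 were tested and 2 were called higher. Ptgs2, the inducible cyclooxygenase, was higher (1.61, adjusted p 0.00367) from a low level, at medians of 0.892 CPM in LSD1WT and 2.29 CPM in LSD1cKO. Alox5, the first enzyme of leukotriene synthesis, was higher (1.25, adjusted p 0.00837), at medians of 13.2 and 34.1 CPM. Adcy4 gave 1.78 (adjusted p 0.0958) at under 1 CPM in each library. None of the 13 genes for porphyrin and haem was called, although all 13 were tested, and Fech, which inserts iron into the porphyrin ring, gave -0.33 (adjusted p 0.0639) and Blvrb gave -0.81 (adjusted p 0.289). Without the 2 libraries 9 of the eicosanoid and nucleotide genes were called higher and 2 lower, and 0 and 2 of the haem genes. Fech was then called (-0.35, adjusted p 0.0122), and Blvrb gave -0.07 (adjusted p 0.740).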

How the data were processed

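PolyA RNA was sequenced from 12 preosteoclast cultures. The authors deposited raw read counts per Ensembl gene, with no normalization. The submitters' processing notes name HISAT2 2.1.0, featureCounts, FastQC, edgeR and GRCm39, with no role or order, and the handling of strand and of reads with several matches is not given in the sources used here. Counts were analysed in R 4.3.3. Genes were kept with filterByExpr (15425 of 57010), libraries were scaled by TMM, and edgeR 4.0.16 quasi-likelihood models were fitted to the 12 libraries, with terms for genotype and culture or with 1 coefficient for each of 6 conditions. Benjamini-Hochberg adjusted p-values under 0.05 were called, and intervals are 95%. Both models were run on simulated counts, with independent libraries and a spread per gene shared by all 12. That setting has no deviating libraries, near-noise pair or shared mice, and its outcome is not reported here. The labels do not say whether libraries of a group come from separate cultures beyond the mouse numbers, and p-values measure the spread between libraries.

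The members and gene lists were chosen with earlier results of these data known. Named genes are the 10 members, Kdm1a and, from each related list, those past the threshold over the 3 cultures (at most 6), filled up to the 3 with the smallest p as values where fewer passed. For the porphyrin and haem list, 1 gene named by this rule is not reported here. Marker genes named beside a result were chosen after their values were seen. Exon lengths and transcripts came from GENCODE vM21, and start windows from RefSeq (GRCm38.p6), which holds 8 of the 10 members (not Abcc1 and Abcc3). Alternatives were other scalings and filters, DESeq2 1.42.0, limma 3.58.1, libraries left out or summed, a replicate block, and the compared libraries alone. Taking mandible LSD1WT replicate 3 as femur, and keeping the gene set where libraries were left out, were chosen after seeing the data. Leaving out both femur LSD1WT replicate 2 libraries rests on their osteoclast sums in these same data.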

Additional observations from a re-analysis of the deposited data

How the results depend on the processing

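Abcg2 was called over the 3 cultures in all 21 alternatives (log2 fold change 1.36 to 1.79, adjusted p 1.4e-08 to 0.0221), and Abcc2 in 8 of them. The number of transporters called over the 3 cultures, 2, fell to 1 with the 2 mandible LSD1WT libraries summed, with the replicate block and with mandible LSD1WT replicate 3 taken as ligated femur, rose to 8 without both femur LSD1WT replicate 2 libraries, and ran from 1 to 2 when single libraries were left out. In every other comparison it was 0. For LSD1cKO against LSD1WT it became 1 with DESeq2 in mandible and in ligated femur, 6 in mandible on the compared libraries alone (34.1% of all genes called), and 3, 3 and 2 in mandible, ligated femur and unligated femur without both femur LSD1WT replicate 2 libraries, where 5.93%, 9.8% and 2.84% of all genes were called. For mandible against femur it became 2 in LSD1WT and 1 in LSD1cKO with DESeq2, beside 6.86% and 3.09% of all genes called lower. With no filter beyond 1 count it became 2 in LSD1WT, where the share of all genes called is not reported here. On the compared libraries alone it became 6 in LSD1cKO, where 39.6% of all genes were called. The number in LSD1cKO also moved without both femur LSD1WT replicate 2 libraries. Leaving out single libraries gave 0 to 4 in LSD1WT (4 without ligated femur LSD1WT replicate 1, where 24.3% of all genes were called) and 0 to 1 in LSD1cKO (1 without ligated femur LSD1WT replicate 1 or 2).

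Directions turned for few values. Without both femur LSD1WT replicate 2 libraries, Abca3 turned to 0.55 and Abcc3 to 1.35 over the 3 cultures. When single libraries were left out, Abca3 ran from -0.53 to 0.0468, Abcc3 from -1.24 to 0.32 and Abcc1 from -0.20 to 0.0756. Abcc3 and Abca3 turned without either femur LSD1WT replicate 2 library. The site difference of the Abcg2 genotype effect, near 0, turned to -0.0132 with upper-quartile scaling, with a mean of at least 10 counts (-0.01045) and on the compared libraries alone (-0.0086), to -0.46 without both femur LSD1WT replicate 2 libraries, to -0.34 with the replicate block and to -0.28 with the library taken as femur, and ran from -0.43 to 0.34 when single libraries were left out. The ligature difference of the Abcg2 genotype effect then ran from -0.45 to 0.71. The cause of these changes was not tested.

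Same-numbered libraries shared a deviation from the group means in some pairs only. Correlations of these deviations ran from -0.197 to 0.780. The highest was between ligated and unligated femur LSD1WT, which come from different mice. For the pairs from the same mice they were 0.030 and 0.026. The block by replicate number left 1 transporter called over the 3 cultures, Abcg2, against 2, and 403 genes against 544. DESeq2 called 1248 genes there and the fit without both femur LSD1WT replicate 2 libraries 3869. Low counts limit Abcb1a and Abcc2, and 2 libraries per condition limit every comparison within a culture.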
